A study of Mus musculus with 15 samples.

Results

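The genes described here are the inhibitory co-receptors of the B cell antigen receptor, the Fc receptor-like genes, and the phosphatase that the inhibitory receptors recruit: Cd22, Siglecg, Cd72, Fcgr2b, Ptpn6, Fcrl1, Fcrl5, Fcrla, Lair1 and Cd5. They were taken by name for their known function, with earlier results of these data known, and make up 10 of the 21761 genes in the expression table. RNA was sequenced from splenic B cells of wild-type female C57BL/6J mice in 5 groups of 3 libraries. Naive cells were CD43-negative, with no stimulation and no drug. All 4 other groups were B cells grown ex vivo for 3 days with LPS, IL-2 and IL-5, either with the solvent DMSO or with 250 nM GSK-J4, an inhibitor of the demethylases that remove the repressive histone mark H3K27me3. They were separated magnetically into GL7+ cells, which the titles call activated B cells, and CD138+ cells, which they call plasmablasts, so each fraction was enriched and not pure. Replicates 1 to 3 are 3 mice named in the labels, which gave cells to every group. The exception is replicate 4 of the CD138+ GSK-J4 group, whose column fits that group and no single mouse.

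Values are RPKM, reads per kilobase of gene length per 1000000 assigned reads, so levels can be set side by side between genes. Depth was 6175067 to 13189963 reads in 14 libraries and at most 2635982 in naive replicate 2. In that library the recovered read numbers of all 10 genes were even, so the step taken as 1 read may be too small. Its depth and read numbers may thus be too high by a factor of 2. The 10 genes were read 1 to 24761 times per library. The summed level of 6 B cell markers fell from 3133 to 3726 RPKM in naive cells to 1568 to 1642 in GL7+ DMSO and 1017 to 1072 in CD138+ DMSO, while that of 5 plasmablast markers was 272 to 310, 598 to 659 and 2849 to 3063. Sdc1, the gene of CD138, averaged 3.13 RPKM in naive, 1.37 in GL7+ DMSO and 32.6 in CD138+ DMSO cells. GL7 is a glycan with no gene of its own to check. Naive cells also held markers of other blood cells (Lyz2 at 61.7, Itgax at 14.1, Csf1r at 8.66 and Cd3e at 0.786 RPKM), and Csf1r and Itgax were under 0.1 RPKM and Cd3e at 0 in every cultured group's mean. Other markers of these cells did not vanish: in naive and GL7+ DMSO cells Cd68 averaged 11.3 and 8.94 RPKM and Itgam 2.83 and 2.71, and Cd28 went from 0.388 in naive to 7.56 in CD138+ DMSO cells. The marker sums went from 5.67 to 10.3 RPKM in naive to 0.216 to 0.495 in cultured cells for NK cells, from 28.1 to 31.1 to 6.64 to 33.4 for dendritic cells (mostly Flt3 in culture) and from 7.14 to 8.59 to 0.205 to 0.899 for erythroid cells and platelets. Spn, the gene of CD43, averaged 4.16 RPKM in naive and 75.3 in CD138+ DMSO cells.

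The inhibitory co-receptors share a working principle. When the antigen receptor is engaged, the kinase Lyn phosphorylates short tyrosine motifs (ITIMs) in their cytoplasmic tails, and the motifs recruit the tyrosine phosphatase SHP-1, encoded by Ptpn6, or the lipid phosphatase SHIP-1, which dampen the calcium and kinase response. FcγRIIB does so after binding the Fc part of IgG in immune complexes. CD22 and Siglec-G bind sialic acids, and CD72 binds semaphorin 4D. Fc receptor-like proteins are a related family whose members carry ITIMs, activating motifs or both, and together these receptors are known for setting the threshold of B cell activation and tolerance.

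Promoter sequences are shown for 4 genes that represent the main patterns: Cd22 and Cd72, whose group means stepped down from naive to GL7+ to CD138+ cells and with GSK-J4 in each fraction, and Fcrl1 and Fcrl5, chromosomal neighbours that moved in opposite directions between naive and GL7+ cells. Each window holds 250 bases before and 50 bases after the start of the gene in RefSeq on GRCm38.p6, 5′ to 3′ on the gene's own strand. Capitals mark the letters GAGGAAGT, an element of the ETS factors PU.1 and Spi-B, or the EBF1 element, TCCC, any 2 bases and GGGA, on either strand. The windows are chr7:30878979-30879278 on the minus strand for Cd22, chr4:43454577-43454876 on the minus strand for Cd72, chr3:87376137-87376436 on the plus strand for Fcrl1 and chr3:87435532-87435831 on the plus strand for Fcrl5.
Cd22: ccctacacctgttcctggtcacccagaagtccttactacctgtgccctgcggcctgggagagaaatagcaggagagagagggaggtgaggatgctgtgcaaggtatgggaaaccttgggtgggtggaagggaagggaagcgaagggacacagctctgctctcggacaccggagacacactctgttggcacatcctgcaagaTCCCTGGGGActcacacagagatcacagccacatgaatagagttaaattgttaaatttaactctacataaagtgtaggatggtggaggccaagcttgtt
Cd72: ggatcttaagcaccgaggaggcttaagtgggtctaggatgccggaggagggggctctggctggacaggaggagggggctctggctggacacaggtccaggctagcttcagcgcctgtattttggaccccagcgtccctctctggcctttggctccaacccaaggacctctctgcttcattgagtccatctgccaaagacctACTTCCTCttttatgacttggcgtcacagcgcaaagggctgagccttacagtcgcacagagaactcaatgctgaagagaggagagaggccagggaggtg
Fcrl1: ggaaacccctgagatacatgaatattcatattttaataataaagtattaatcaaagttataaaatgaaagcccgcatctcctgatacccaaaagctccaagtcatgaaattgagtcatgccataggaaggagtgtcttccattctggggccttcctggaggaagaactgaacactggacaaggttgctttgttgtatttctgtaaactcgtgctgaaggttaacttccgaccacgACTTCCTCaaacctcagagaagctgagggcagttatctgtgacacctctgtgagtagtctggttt
Fcrl5: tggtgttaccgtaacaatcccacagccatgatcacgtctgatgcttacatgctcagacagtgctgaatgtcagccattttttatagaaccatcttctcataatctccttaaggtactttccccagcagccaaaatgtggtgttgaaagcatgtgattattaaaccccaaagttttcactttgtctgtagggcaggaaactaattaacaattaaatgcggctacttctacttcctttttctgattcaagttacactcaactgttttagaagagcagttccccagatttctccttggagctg

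The EBF1 letters stood 49 bases before the start of Cd22 and in none of the other 9 promoters, and 0.904% of 32851 mouse promoters of this length hold them. GAGGAAGT was found in 3 of the 10 promoters, 49 bases before the start in Cd72, 15 before in Fcrl1 and 53 before in Cd5, against 3.2% of all promoters. Its core GGAAGT, which lies inside it, was found in 6 of 10 (23.8% of all promoters), the E-box CAGGTG in 4 of 10 (20.2%) and the octamer ATTTGCAT in 0 of 10 (1.74%), on either strand. Siglecg has 2 promoters in this set, and only the first listed was searched. These matches describe the letters of the windows and show no binding.

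Among naive cells the co-receptor genes were abundant. Cd22 had the highest mean of the 10 at 323 ± 27.2 RPKM (SD, n = 3), followed by Ptpn6 at 314 ± 27.9, Siglecg at 259 ± 21.1, Fcrl1 at 196 ± 11.3, Cd72 at 176 ± 27.5 and Fcrla at 165 ± 5.37. Fcgr2b at 57.5 ± 3.54 and Fcrl5 at 20.7 ± 1.79 were lower. Lair1 at 2.89 ± 0.375 and Cd5 at 1.5 ± 0.551 were lowest, with at most 143 and 49 reads per naive library. In CD138+ GSK-J4 cells the order had changed: Fcgr2b had the highest mean, at 39.3 ± 1.96 RPKM, Ptpn6 followed at 35.1 ± 1.59, and Cd22 had dropped to 11.5 ± 3.18 and Siglecg to 8.32 ± 1.2, below Fcrla at 24.2 ± 1.12 and Fcrl1 at 22.1 ± 1.21.

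**Figure D1:**
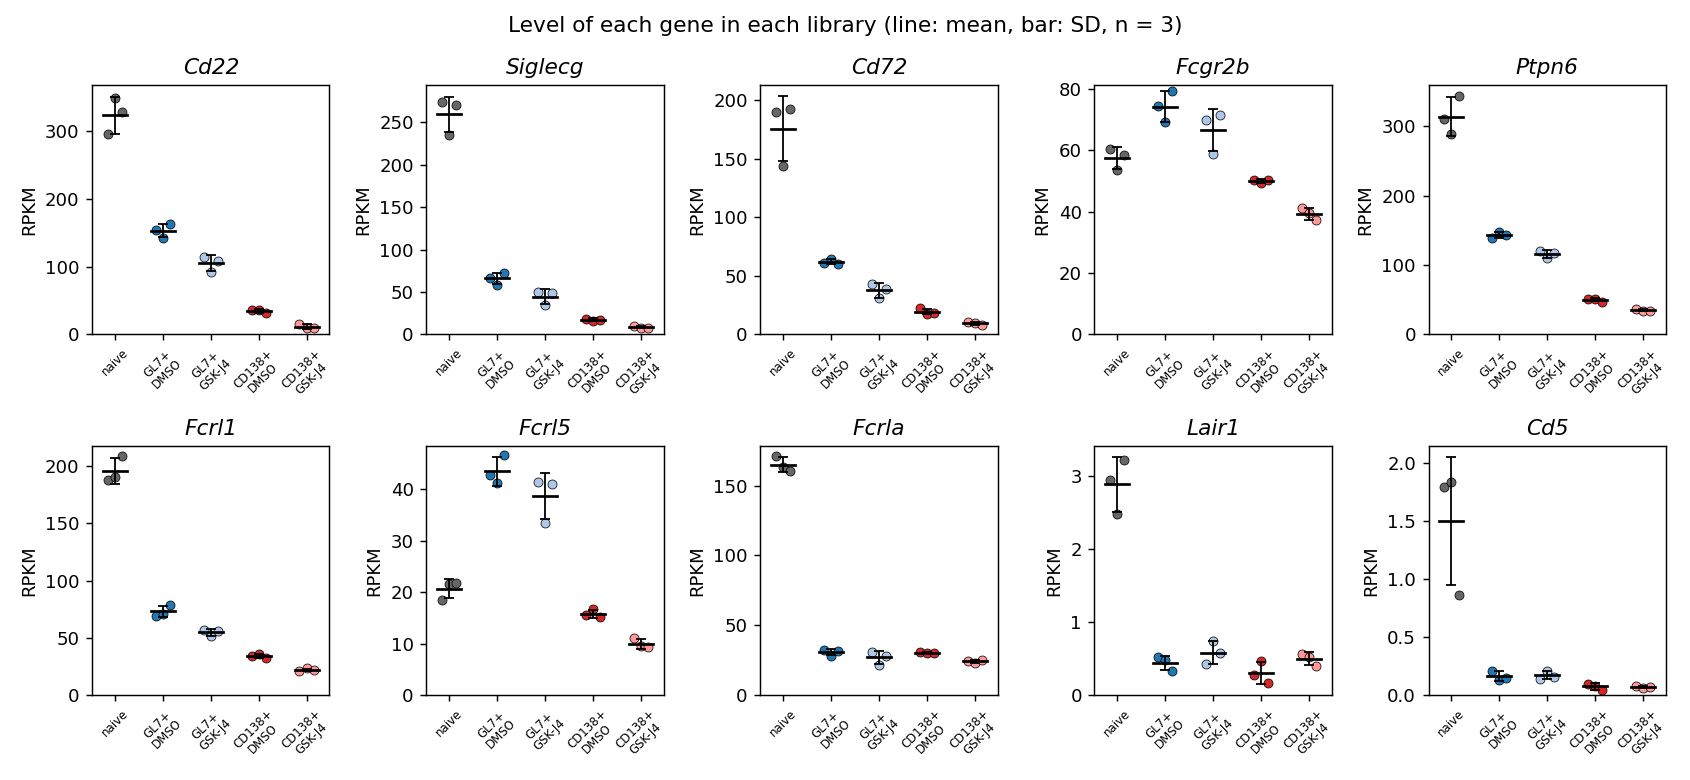
RPKM (y axis, linear, its own scale for each gene) of the 10 genes in each of the 15 libraries, with group means (lines) and SD (bars, n = 3). Cd22, Siglecg, Cd72, Ptpn6 and Fcrl1 step down from naive to GL7+ to CD138+ cells and again with GSK-J4 in each fraction, while Fcrl5 and Fcgr2b are highest in GL7+ cells and the means of Fcrla stay between 24.2 and 30.8 RPKM in the cultured groups.

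The first question was how these genes differed between naive, GL7+ and CD138+ cells without the inhibitor. Both cultured fractions were taken after the same 3 days. Falls, rises and steps described below therefore compare groups and do not follow cells in time. Of the 10 genes, 9 had at least 1 RPKM in at least 3 libraries and were tested among 10866 genes. Lair1 passed that filter only through the naive group, so it had to differ from naive cells and is kept apart in the comparisons with them. Cd5 did not pass. Of the 8 others, 6 were lower and 2 higher in GL7+ DMSO than in naive cells at a limma adjusted p under 0.05, where 40.3% of all genes tested were lower and 41.3% higher. All 8 were lower in CD138+ DMSO than in naive cells (43.5% of all genes, and 39.9% were higher), with a median log2 change of -2.56 against -0.05 over all genes. Between the 2 cultured fractions, 7 of the 9 genes were lower in CD138+ than in GL7+ cells and none was higher, where 36.9% of all genes were lower and 21.8% higher. Groups with no overlap, in the falling direction, were found in 40.0% of all genes from naive to GL7+, 42.8% from naive to CD138+ and 44.8% from GL7+ to CD138+ cells. In bulk RNA, fewer cells that express a gene and less RNA per cell cannot be told apart.

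The genes of the sialic acid receptors and of CD72 fell at both steps. Cd22 was read at 294.5, 348.4 and 327.4 RPKM in naive replicates 1 to 3, at 154.4, 142.5 and 162 in GL7+ DMSO and at 36.39, 36.03 and 31.58 in CD138+ DMSO. Naive, GL7+ and CD138+ libraries did not overlap. Its log2 change was -1.07 (SE 0.13, limma adjusted p = 3e-06) from naive to GL7+ cells and -2.11 (SE 0.13, limma adjusted p = 8.2e-09) from GL7+ to CD138+ cells. The latter fall was the 9th largest of 10866.

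Siglecg, whose product Siglec-G is the second sialic acid receptor of B cells and is known for restraining B-1 cells, went from 273.3, 235.2 and 269.8 RPKM in naive cells to 66.96, 58.65 and 72.33 in GL7+ DMSO and 18.76, 15.39 and 17.3 in CD138+ DMSO. The groups were again apart, and CD138+ cells held 6.61% of the naive mean. The log2 change from naive to CD138+ cells was -3.84 (SE 0.13, limma adjusted p = 9.3e-13).

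Cd72, a C-type lectin-like receptor, went from 190.4, 143.8 and 192.4 RPKM to 61.3, 64.61 and 60.29 in GL7+ DMSO and 22.3, 17.79 and 18.48 in CD138+ DMSO, without overlap between these groups. Naive replicate 2, the shallowest library, was the lowest naive value of Cd72, Siglecg, Fcgr2b, Ptpn6 and Lair1, and the highest of Cd22 and Cd5. From GL7+ to CD138+ cells Cd72 changed by -1.63 (SE 0.14, limma adjusted p = 1.2e-07) on the log2 scale. Cd72 overlaps Tesk1 in RefSeq, and the strand setting of the counting is not given in the sources used here, so reads of the 2 genes cannot be told apart where they overlap. Tesk1 averaged 19.3 RPKM in naive cells and 3.61 to 5.07 in the cultured groups. The same limit holds for Fcrl1, Fcrl5 and Fcrla, which overlap Gm31940, Gm40085 and Gm2962 in RefSeq.

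Ptpn6, which encodes the SHP-1 phosphatase shared by these receptors, fell together with them. Its values were 310.1, 288.7 and 344 RPKM in naive cells, 138.5, 147 and 144 in GL7+ DMSO and 51.33, 50.97 and 47.49 in CD138+ DMSO. No group overlapped the next. The log2 changes were -1.13 from naive to GL7+ and -1.5 from GL7+ to CD138+ cells (SE 0.06 each, limma adjusted p = 2.5e-10 and 1.4e-10).

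Fcgr2b, which encodes FcγRIIB, the inhibitory IgG Fc receptor of B cells, kept most of its level. It was read at 60.52, 53.62 and 58.42 RPKM in naive cells, 74.52, 69.31 and 79.22 in GL7+ DMSO and 50.42, 49.35 and 50.21 in CD138+ DMSO. GL7+ DMSO libraries lay above both other groups, and CD138+ DMSO cells held 86.9% of the naive mean. The rise of 0.36 from naive to GL7+ cells (SE 0.07, limma adjusted p = 0.0003) dropped to 0.066 (adjusted p = 0.39) after quantile normalization. The fall of 0.2 from naive to CD138+ cells (limma adjusted p = 0.021) did not pass with median-ratio scaling (adjusted p = 0.092), nor without naive replicate 1 (0.081), naive replicate 3 (0.055) or CD138+ DMSO replicate 2 (0.055). From GL7+ to CD138+ cells it fell by 0.56 (SE 0.07, limma adjusted p = 1.1e-05). Fcgr3, a similar Fc receptor gene of myeloid cells that could share reads, averaged 4.06 RPKM in naive and 0.891 to 2.26 in cultured cells.

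The 3 Fc receptor-like genes had 3 patterns. Fcrl1, whose product is known for activating motifs, also fell at both steps, with 187.5, 190.6 and 208.5 RPKM in naive cells, 69.34, 71.12 and 78.7 in GL7+ DMSO and 34.51, 35.81 and 32.06 in CD138+ DMSO. Its log2 changes were -1.41 and -1.08 at the 2 steps (SE 0.06 each, limma adjusted p = 3.2e-11 and 4.8e-09).

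Fcrl5, which carries both inhibitory and activating motifs and is known as a marker of marginal zone and B-1 cells, was highest in GL7+ cells. It was read at 18.59, 21.55 and 21.82 RPKM in naive cells, 42.71, 41.15 and 46.6 in GL7+ DMSO and 15.57, 16.71 and 15.14 in CD138+ DMSO. GL7+ cells were thus at 211% of the naive mean and CD138+ cells at 76.6%, with no overlap between the 3 groups. The log2 change was 1.04 from naive to GL7+ (SE 0.09, limma adjusted p = 4e-08) and -1.4 from GL7+ to CD138+ cells (SE 0.09, limma adjusted p = 7.8e-09). Fcrl1 and Fcrl5 are next to each other on chromosome 3, and their changes from naive to GL7+ cells had opposite signs.

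Fcrla, which encodes a receptor-like protein that stays inside the cell, was lower in both cultured fractions than in naive cells. Its values were 171.1, 163.5 and 160.7 RPKM in naive cells, 32.38, 28.04 and 31.87 in GL7+ DMSO and 30.67, 30.16 and 30.47 in CD138+ DMSO. The 2 cultured groups overlapped. From naive to GL7+ cells the log2 change was -2.39 (SE 0.09, limma adjusted p = 5.5e-12), and between GL7+ and CD138+ cells it was -0.01 with a 95% confidence interval of -0.21 to 0.19. The sign of that last value turned with quantile normalization (0.052) and median-ratio scaling (0.093).

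Lair1 and Cd5 were expressed little in any group. Lair1, a collagen receptor with ITIMs, was at 2.955, 2.482 and 3.222 RPKM in naive cells (at most 143 reads) and at group means of 0.308 to 0.585 in culture (7 to 26 reads). Cd5, a scavenger-receptor family protein of T cells and B-1 cells, was at 1.796, 1.834 and 0.861 RPKM in naive cells (at most 49 reads) and at 0.0703 to 0.171 in culture (1 to 5 reads). In both genes every naive library was above every cultured one. Fitted without the filter, Cd5 was lower by 1.08 on log2(RPKM + 1) in GL7+ DMSO than in naive cells (limma adjusted p = 3.9e-06). The added 1 understates the change at such low levels, and the GL7+ DMSO mean was 10.8% of the naive mean. T cells are known to express both genes and myeloid cells Lair1. The summed level of 11 myeloid markers was 74.9 to 111 RPKM in naive and 6.66 to 16.8 in cultured cells. That of 10 T cell markers was 178 to 185 and 40.4 to 93 RPKM, mostly Cd2, with Cd3e at 0 in all cultured libraries. The part of these markers in the fall of Lair1 and Cd5 was not tested.

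**Figure D2:**
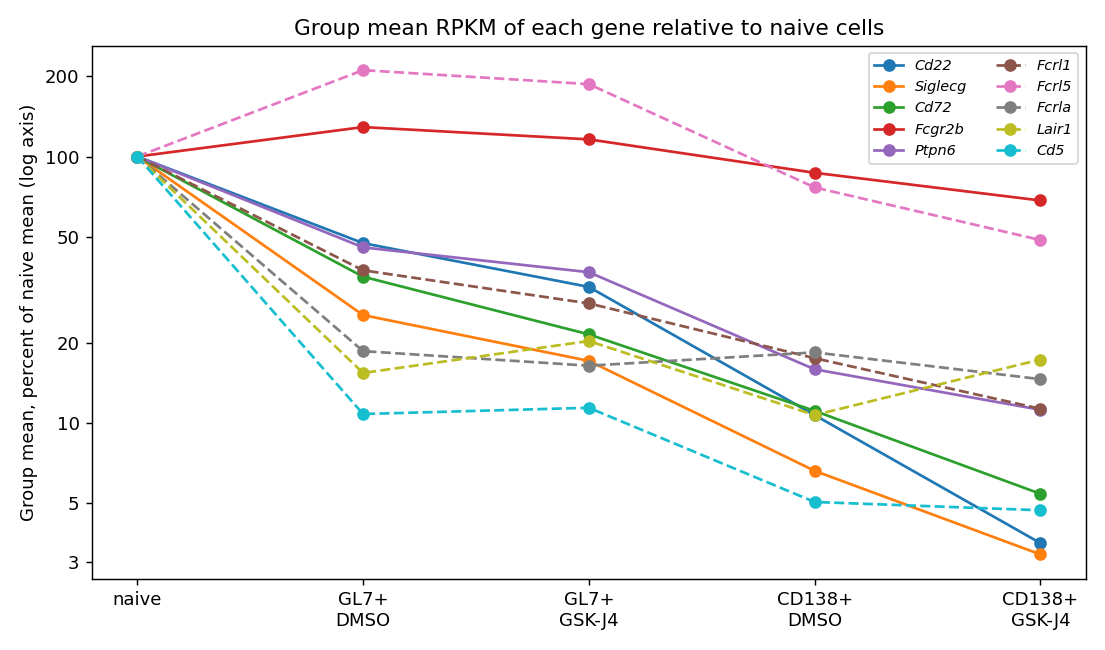
Group mean RPKM of each gene as a percentage of its naive mean (y axis, logarithmic) in the 5 groups (x axis), where lines only join the points of 1 gene. Fcrl5 reaches 211% and Fcgr2b 129% in GL7+ DMSO cells, and Cd22 and Siglecg end at 3.54% and 3.21% in CD138+ GSK-J4 cells.

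The second question was what GSK-J4 changed within each fraction. In CD138+ cells 8 of the 9 tested genes fell with GSK-J4 and none rose, where 8.61% of all genes tested fell and 4.61% rose. The same 8 genes had every GSK-J4 library below every DMSO library, as had 22.4% of all genes. The median log2 change of the 9 was -0.6 (-0.61 without Lair1), against -0.03 over all genes. With the mouse as a block, the same 8 of 9 passed, and the number of all genes that fell went from 936 to 614. The B cell markers moved the same way: 5 of 6 fell, Pax5 by 0.99, and their summed level went from 1017 to 1072 down to 816 to 856 RPKM. None of the 5 plasmablast markers passed, and 2 of 5 activated B cell markers fell, with sums of 24.5 to 27.1 RPKM with DMSO and 11 to 17.4 with GSK-J4. The part of these markers in the results on the co-receptors was not tested.

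Cd22 fell most. It went from 36.39, 36.03 and 31.58 RPKM in CD138+ DMSO replicates 1 to 3 to 15.13, 9.498 and 9.764 in GSK-J4 replicates 1, 2 and 4. All GSK-J4 libraries lay below all DMSO libraries, with replicate 1 the highest of them. GSK-J4 cells held 41.6% of the DMSO value in mouse 1 and 26.4% in mouse 2. The log2 change of -1.54 (SE 0.13, limma adjusted p = 9.5e-06) was the 9th largest fall of 10866.

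Cd72 and Siglecg fell by similar amounts. Cd72 was at 10.93, 9.526 and 8.066 RPKM with GSK-J4, against 17.79 to 22.3 with DMSO, and changed by -0.97 (SE 0.14, limma adjusted p = 0.0004) on the log2 scale. Siglecg was at 9.676, 7.412 and 7.879 RPKM, against 15.39 to 18.76, and changed by -0.96 (SE 0.13, limma adjusted p = 0.00038). Neither gene's GSK-J4 libraries overlapped its DMSO libraries. Within mice, GSK-J4 cells held 49% and 53.5% of the DMSO level of Cd72 and 51.6% and 48.1% of that of Siglecg.

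Smaller falls were measured in the phosphatase and the Fc receptor family. Ptpn6 went from 47.49 to 51.33 RPKM with DMSO down to 36.93, 34.43 and 33.96 with GSK-J4, a log2 change of -0.5 (SE 0.06, limma adjusted p = 0.00018). Fcrl1 was at 20.95, 23.37 and 21.98 RPKM with GSK-J4 (log2 change -0.6, SE 0.06, limma adjusted p = 5.1e-05), and Fcrl5 at 11.1, 9.618 and 9.381 (-0.61, SE 0.09, limma adjusted p = 0.00056). In these 3 genes the treated and control libraries were apart. Fcgr2b, at 41.19, 39.54 and 37.28 RPKM, changed by -0.34 (SE 0.07, limma adjusted p = 0.0074), and kept 80.1% to 81.7% of the DMSO value within mice. Fcrla, at 24.21, 23.04 and 25.27 RPKM, changed by -0.32 (SE 0.09, limma adjusted p = 0.037). Both genes' treated libraries lay below all controls. The call of Fcrla was lost without the filter on low values (adjusted p = 0.073), with quantile normalization (0.058) and without any 1 of the 6 CD138+ libraries (0.058 to 0.12). Lair1 had 10 to 15 reads per library with GSK-J4, a log2 change of 0.2 with a 95% confidence interval of -0.04 to 0.44 (limma adjusted p = 0.27). At this low level the added 1 RPKM understates the change. The GSK-J4 mean of Lair1 was 162% of the DMSO mean, and its log2 change was 0.13 to 0.78 over the refits, none of which passed. Cd5 had 1 read in each of the 3 treated libraries, too few for a difference to be detectable.

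In GL7+ cells 5 of the 9 tested genes fell with GSK-J4 and none rose, where 7.71% of all genes fell and 5.81% rose. The same 5 genes had no overlap between the groups, as had 21.6% of all genes in this direction. The median log2 change of the 9 was -0.31 (-0.36 without Lair1), against -0.01 over all genes. Of the B cell markers 2 of 6 fell, with a summed level of 1568 to 1642 RPKM with DMSO and 1210 to 1374 with GSK-J4, and all 5 plasmablast markers rose, with sums of 598 to 659 and 773 to 868 RPKM. None of the 5 activated B cell markers passed, and their sum was 97.8 to 107 RPKM with DMSO and 70.9 to 87.4 with GSK-J4. The part of these markers in the results was not tested.

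Cd72 changed most in this fraction, from 61.3, 64.61 and 60.29 RPKM to 43.18, 31.08 and 38.91, a log2 change of -0.72 (SE 0.14, limma adjusted p = 0.0038). Siglecg went from 66.96, 58.65 and 72.33 RPKM to 50.37, 34.18 and 48.39 (-0.58, SE 0.13, limma adjusted p = 0.012), and Cd22 from 154.4, 142.5 and 162 to 114.2, 92.31 and 107.9 (-0.54, SE 0.13, limma adjusted p = 0.017). In all 3 genes the treated libraries lay below the controls, and replicate 2 was the lowest treated library. Mouse 2 also had the lowest share of its DMSO value, at 48.1% for Cd72, 58.3% for Siglecg and 64.8% for Cd22. The call of Cd22 was lost without GL7+ DMSO replicate 1 (adjusted p = 0.056) or 3 (0.067) or GSK-J4 replicate 2 (0.081), and that of Siglecg without DMSO replicate 3 (0.055).

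Fcrl1 went to 56.71, 51.51 and 56.41 RPKM from 69.34 to 78.7 (-0.41, SE 0.06, limma adjusted p = 0.0014), and Ptpn6 to 120.3, 109.7 and 116.9 from 138.5 to 147 (-0.31, SE 0.06, limma adjusted p = 0.0058). These 2 genes also had no overlap between groups. Fcgr2b at 70.01, 58.92 and 71.47 RPKM, Fcrl5 at 41.48, 33.54 and 40.97 and Fcrla at 31.08, 21.89 and 28.2 overlapped their controls. Their log2 changes were -0.16, -0.17 and -0.19, with 95% confidence intervals of -0.31 to 0, -0.36 to 0.02 and -0.39 to 0.01, and none passed (limma adjusted p = 0.18 to 0.23). For Fcrla the adjusted p, rounded, was 0.05 and past the threshold without GSK-J4 replicate 1. Lair1, at 132% of the DMSO mean, changed by 0.13 (interval -0.11 to 0.37, limma adjusted p = 0.49).

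**Figure D3:**
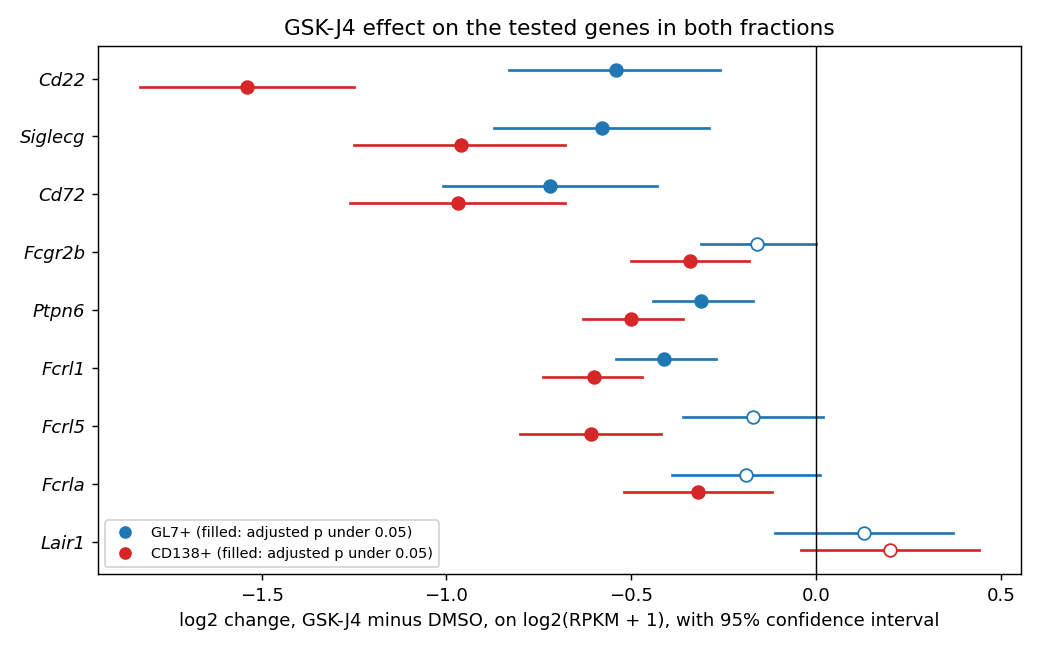
Log2 change from DMSO to GSK-J4 (x axis, on log2(RPKM + 1)) of the 9 tested genes in GL7+ cells (blue) and CD138+ cells (red), with 95% confidence intervals and filled points where the limma adjusted p is under 0.05. Cd22 has the widest gap between the fractions, -0.54 against -1.54.

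Whether the inhibitor acted differently in the 2 fractions was tested as the difference between the 2 effects. Cd22 was the 1 of 9 genes to pass, with an effect lower by 1 in CD138+ than in GL7+ cells on the log2 scale (95% confidence interval -1.41 to -0.59, limma adjusted p = 0.027), where 0.644% of all genes passed in that direction and 0.322% in the other. The adjusted p was 0.08 with the mouse as a block, 0.061 with no filter on low values and 0.055 to 0.082 when any of 9 of the 12 cultured libraries was left out. It passed without GL7+ GSK-J4 replicate 2, CD138+ DMSO replicate 3 or CD138+ GSK-J4 replicate 1. Fcrl5 had a difference of -0.44 (interval -0.71 to -0.17, limma adjusted p = 0.12), which passed with voom on recovered reads (-0.49, adjusted p = 0.039). The other 7 differences were between -0.39 for Siglecg (interval -0.79 to 0.02) and 0.07 for Lair1 (interval -0.27 to 0.41), and none passed.

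The rest of the pathway was followed in 4 lists of genes. Beside all 4 stand the shares over all genes tested with GSK-J4. In CD138+ cells 8.61% fell and 4.61% rose, and in GL7+ cells 7.71% fell and 5.81% rose. The median log2 changes over all genes were -0.03 and -0.01. Of 21 tested partners of these receptors and other inhibitory receptors, 6 fell and 1 rose with GSK-J4 in CD138+ cells and 8 fell and 1 rose in GL7+ cells, with median log2 changes of -0.12 and -0.16. The 8 in GL7+ cells became 3, 4 and 4 without DMSO replicate 1, 2 or 3 and 2 without GSK-J4 replicate 2. Btla, an inhibitory receptor that binds HVEM, fell from 12.9 ± 0.501 to 8.74 ± 0.735 RPKM in CD138+ cells (log2 change -0.52, limma adjusted p = 0.0016) and from 46.4 ± 5.67 to 30.5 ± 3 in GL7+ cells (-0.59, limma adjusted p = 0.00093). Pirb, a receptor for MHC class I with ITIMs, fell from 5.66 ± 0.97 to 2.66 ± 0.42 RPKM in GL7+ cells (-0.86, limma adjusted p = 0.00033). Ceacam1 (-0.66), Pirb (-0.55) and Csk (-0.23), whose kinase restrains Lyn and its relatives, fell in CD138+ cells. Ceacam1 (-0.42) and Csk (-0.15) also fell in GL7+ cells. Inppl1 fell in GL7+ cells (-0.31) and had no call in CD138+ cells (-0.03).

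Pdcd1, which encodes PD-1, was the gene of this list that rose in GL7+ cells, from 1.33 ± 0.248 to 3.84 ± 0.928 RPKM (log2 change 1.04, limma adjusted p = 0.00063). In CD138+ cells it was at 2.77 ± 0.485 and 2.47 ± 0.344 RPKM, and the difference between the fractions was -1.16 (limma adjusted p = 0.019). Lyn, the kinase that phosphorylates the ITIMs, was at 57.2 ± 2.46 with DMSO and 57.5 ± 2.51 RPKM with GSK-J4 in GL7+ cells and at 32.5 ± 1.13 and 31.1 ± 2.31 in CD138+ cells, with no call in either. Across the states without inhibitor it fell from 153 ± 11 RPKM in naive cells to 32.5 in CD138+ cells (log2 change -2.2, limma adjusted p = 1.3e-13).

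Of the ligands, 4 of 7 genes were tested, and 1 rose and 1 fell with GSK-J4 in each fraction. Cd24a, whose product is a ligand of Siglec-G, went from 733 ± 12.6 to 967 ± 12 RPKM in GL7+ cells (0.4, limma adjusted p = 0.00041) and from 760 ± 14.9 to 915 ± 38.1 in CD138+ cells (0.27, limma adjusted p = 0.0039). Sema4d, the ligand of CD72, fell by 0.29 and 0.21 (limma adjusted p = 0.0045 and 0.025). St6gal1, the transferase that makes the sialic acid linkage bound by CD22, was at 121 ± 5.59 in GL7+ DMSO and 259 ± 11.9 RPKM in CD138+ DMSO cells (log2 change 1.08, limma adjusted p = 1.6e-09), so its level rose between the same groups in which Cd22 fell.

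The activating side of the antigen receptor also changed. Of 26 tested genes, 11 fell and 3 rose in CD138+ cells and 8 fell and 2 rose in GL7+ cells, with medians of -0.17 and -0.15, both nearer 0 than the medians of the co-receptor genes. In CD138+ cells the kinase gene Blk fell by 0.8 and the scaffold gene Bank1 by 0.64 (limma adjusted p = 1.6e-05 and 5.1e-05). In GL7+ cells Cd79b, a signalling chain of the antigen receptor, fell by 0.38 (limma adjusted p = 0.0021). Cr2, a complement receptor gene, rose there from 8.23 ± 0.303 to 12.1 ± 0.189 RPKM (0.51, limma adjusted p = 0.0015). Cd79b (-0.22) and Cr2 (0.27) were also called in CD138+ cells, and Blk (-0.25) in GL7+ cells. Bank1 had no call in GL7+ cells (-0.16). The count of 8 in GL7+ cells was 4 with no filter on low values, 5 with median-ratio scaling, and 3 to 13 when single libraries were left out (the highest without naive replicate 2, and the lowest without GSK-J4 replicate 2 and without either of DMSO replicates 1 and 3). The effects of Blk (-0.54), Bank1 (-0.48) and Cd81 (0.51) differed between the fractions (limma adjusted p = 0.028 to 0.033). Of 8 tested other phosphatases and adaptors, 2 fell and 1 rose in each fraction. Ptpn12 was the one that rose, by 0.56 in GL7+ and 0.26 in CD138+ cells (limma adjusted p = 0.00072 and 0.047).

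**Figure D4:**
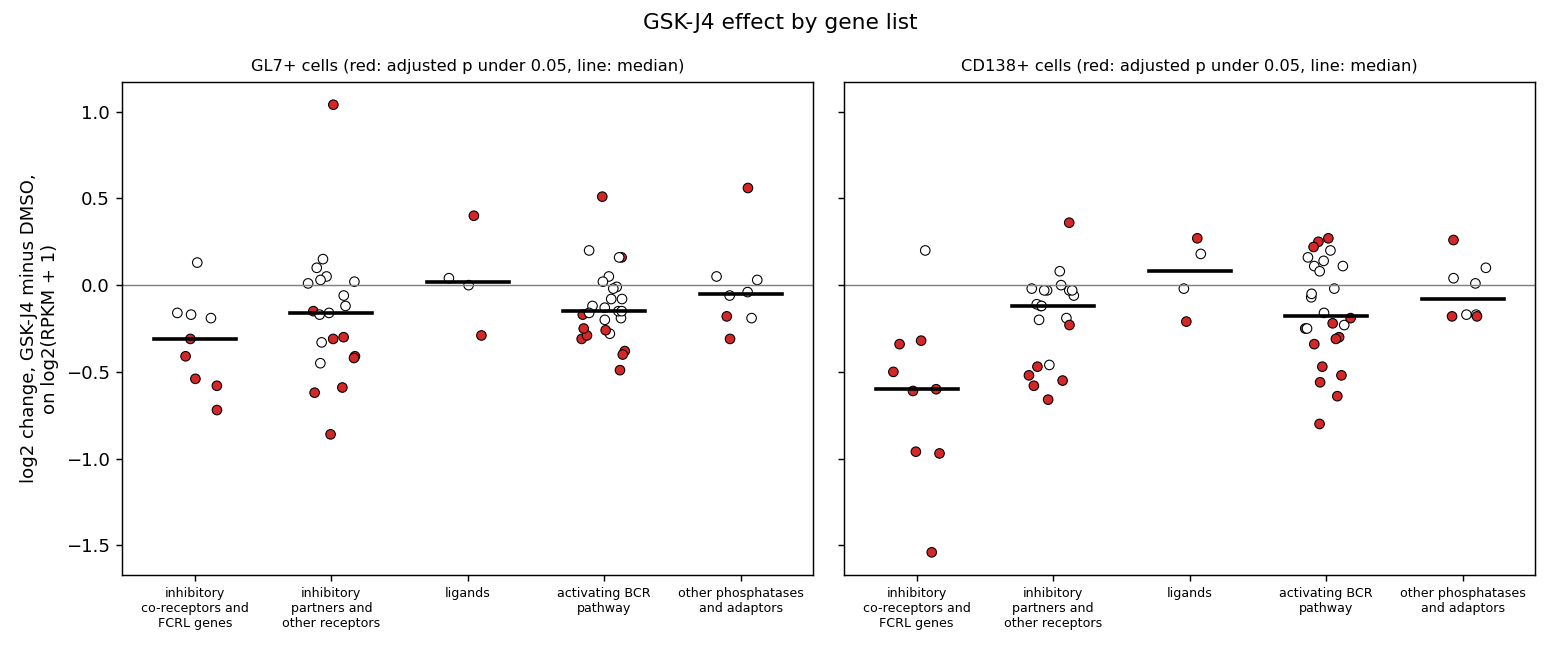
Log2 change from DMSO to GSK-J4 (y axis, on log2(RPKM + 1)) of each tested gene in 5 gene lists (x axis), in GL7+ and CD138+ cells, with list medians as lines and genes with a limma adjusted p under 0.05 in red. The co-receptor list has medians of -0.31 and -0.6, and the 4 other lists have medians between -0.17 and 0.08.

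Genes with the most similar pattern were found by the mean absolute difference of log2 group means over the 5 groups, after centring each gene on its own mean. For Cd22 they were Ffar1 (0.126), Spib (0.197) and Evl (0.222). Spib, which encodes the ETS factor Spi-B, went from 286 ± 28.6 RPKM in naive cells to 86.1 ± 4.8 in GL7+ DMSO, 65.7 ± 7.17 in GL7+ GSK-J4, 19.2 ± 2.43 in CD138+ DMSO and 5.91 ± 1.66 in CD138+ GSK-J4. For Siglecg they were H2-DMb2 (0.054), Tlr1 (0.055) and Haao (0.066), and for Cd72 Aff3 (0.089), Hvcn1 (0.091) and Rcsd1 (0.126). Among the genes described here, Siglecg was the most like Cd72 (0.232), and Fcgr2b was far from Cd22 (1.2). Fcgr2b was most like Nubpl (0.031), Szrd1 (0.033) and Clic1 (0.034), whose levels also peaked in GL7+ DMSO cells, and Fcrl5 most like Dek (0.08), 1500012F01Rik (0.083) and Snora20 (0.103), the last a short gene with few reads. The values for Cd5, led by Arid1a (0.022), Ric8b (0.024) and Lamp3 (0.024), rest on its near-absence in culture.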

How the data were processed

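Poly(A) RNA libraries of the 15 samples were analysed from 1 table in which the authors deposited RPKM and a gene length for each of 21761 genes. TopHat2 and the mouse build mm9 are named in the submitters' processing notes. How reads were counted, with which annotation and strand setting, was not given in the sources used here. RPKM times length in kilobases summed to 1000000 per library. Each library's low values (up to 20 reads) were whole multiples of a step, to within 0.1 of it for 100% of them. This step was taken as 1 read and gave the depths and read numbers. In naive replicate 2 the step may be too small, since the read numbers of the genes described here were all even there. The voom refit used these read numbers.

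Genes that reached 1 RPKM in 3 or more libraries (10866) were tested on log2(RPKM + 1), which understates the change of low genes, with limma 3.58.1 in R 4.3.3. A single model of all 15 libraries had group means as its terms and a variance trend, and Benjamini-Hochberg adjustment ran over all genes tested, with a threshold of 0.05. The fit was tested on simulated data. The 6 contrasts were the effect of GSK-J4 in either fraction, the difference of those effects, the DMSO fractions against one another and each DMSO fraction against naive cells. They share DMSO and naive groups, so their values are not independent. Mouse numbers pair the samples per the labels. Deviations from group means had a median r of 0.09 (15 pairs, -0.03 to 0.19) within and -0.03 (30 pairs) between mice. The block fit gave the library with no mouse a level of its own, which fits that library exactly. Alternatives were other pseudocounts, filters, scalings and tests, and libraries left out.

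The genes and the lists (B cell, activated B cell, plasmablast, T, NK, myeloid, dendritic, erythroid or platelet and CD43 markers, and 4 pathway lists) were chosen with earlier results of these data known. All 10 genes are named, though not each with a test value in every comparison. They are joined by up to 4 genes per pathway list with the smallest adjusted p. The 3 genes of most similar pattern are given for 6 of the 10. Lyn, St6gal1 and Csk follow that rule in at least 1 comparison. Of the genes this rule takes, 2 are not reported here. Lilrb4, Ly6g and Hba-a1 had no matching symbol. Promoters and gene order came from RefSeq (GRCm38.p6), with all 10 genes matched, and no coordinates of another build were used. A planned search of proteins for ITIM motifs was not run. Figures were drawn with matplotlib 3.10.9.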

Additional observations from a re-analysis of the deposited data

Results flagged for a closer look

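The effect of GSK-J4 on Cd22 passed a test of the difference between the fractions in the fit without a mouse block. Its group means were 153 ± 9.85 and 105 ± 11.3 RPKM in GL7+ cells with DMSO and GSK-J4, and 34.7 ± 2.68 and 11.5 ± 3.18 in CD138+ cells (SD, n = 3). The effect was -0.54 in GL7+ and -1.54 in CD138+ cells, a difference of -1.0 on the log2 scale (limma adjusted p = 0.027, and 0.00048 to 0.082 over its alternatives). It did not pass in the fit blocked by mouse (adjusted p = 0.08), with no filter on low values (0.061) or without any 1 of 9 of the 12 cultured libraries (0.055 to 0.082). GSK-J4 libraries were below DMSO libraries in all 6 treated samples of both fractions.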

How the results depend on the processing

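Over 764 refits of single genes described here, 728 kept direction and side of the threshold, 28 lost the call, 2 gained it and 6 changed sign. The sign changes were those of Fcrla between CD138+ and GL7+ DMSO cells, at 0.052 with quantile normalization, 0.093 with median-ratio scaling and 0.014 and 0.025 without GL7+ DMSO replicate 3 or 1 (-0.076 to 0.025 with any library left out), and of the Lair1 difference, at -0.002 without GL7+ GSK-J4 replicate 1 and -0.006 without CD138+ DMSO replicate 3 (-0.006 to 0.16). With the replicate block (mouse), all genes lower in CD138+ cells fell from 936 to 614 and the genes described here whose effect differed between fractions from 1 to 0, and no other call of these genes changed. That count was also 0 with no filter, 2 with voom and 0 to 1 with a library left out. All genes lower in CD138+ cells numbered 1454 with the 12 cultured libraries alone and 552 to 1396 with a library left out (fewest without CD138+ DMSO replicate 2). In GL7+ cells all genes lower numbered 838, 1296 with voom and 420 to 1211 with a library left out (fewest without GSK-J4 replicate 2). The 5 genes called in GL7+ cells became 3 to 6 (fewest without DMSO replicate 3), the 8 partner genes 2 to 9 (fewest without GSK-J4 replicate 2) and the 8 activating genes 3 to 13, 4 with no filter and 5 with median-ratio scaling. The causes were not tested. Genes under 1 RPKM rest on few reads, above all in naive replicate 2.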

Other observations

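Ffar1, a fatty acid receptor gene next to Cd22 on chromosome 7 in RefSeq, had the pattern most like that of Cd22 among 10866 genes. Its mean was 43.5 ± 1.23 RPKM in naive cells, 18.7 ± 1.77 in GL7+ DMSO, 13.2 ± 1.18 in GL7+ GSK-J4, 4.01 ± 0.579 in CD138+ DMSO and 1.2 ± 0.508 in CD138+ GSK-J4 (SD, n = 3). These were 13.5%, 12.2%, 12.6%, 11.6% and 10.5% of the Cd22 means, and since Ffar1 was picked for this likeness, the near-constant share restates the choice. With GSK-J4 in CD138+ cells Ffar1 changed by -1.21 on the log2 scale (limma adjusted p = 5.8e-05), from 31 to 49 reads down to 5 to 10 reads per library. Other genes of the region were chosen after their values were seen. Ffar2 averaged 2.29 RPKM in naive and 0.139 to 0.74 in cultured cells, Ffar3 0.642 and 0.0327 to 0.155, and Mag, the neighbour on the other side of Cd22, 0.0220 and 0.0217 to 0.107. Whether reads of Cd22 transcripts were counted for Ffar1 was not tested.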
